A study of Mus musculus with 6 samples.

Results

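Immediate early genes are the genes that cells switch on within minutes of a stimulus without making new protein first. Their expression was examined here for 10 of them, Fos, Fosb, Junb, Jund, Atf3, Egr1, Egr3, Nr4a1, Ier2 and Btg2, taken by gene symbol from the 39174 genes listed for each sciatic nerve. Each symbol had 1 row in each table, and all 10 genes passed the limit on low values. RNA had been sequenced from the sciatic nerves of 3 wild-type mice (numbered 2, 4 and 5) and 3 Plekhg5-deficient mice (Plekhg5-/-, numbered 2, 3 and 5), all of them untreated adults about a year old. Each library is called a nerve below. The sources used here give neither the strain background, nor how the Plekhg5 allele was made, nor the time between death and RNA extraction, and the labels do not tie animals of the same number to a litter or a day. Whole nerve was used, which holds Schwann cells, fibroblasts, vessels, immune cells and the axons of neurons whose cell bodies lie elsewhere, so fewer cells of a type and less RNA per cell cannot be told apart in any value below.

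Most immediate early genes encode transcription factors. Growth factors, neuregulin among them, act on receptors that pass the signal through Ras, Raf, Mek and Erk, while calcium and cAMP act through kinases of CREB, and the factors SRF, Elk and CREB then start transcription at promoters where they already sit. Fos and Jun family proteins pair to form AP-1, and Egr proteins bind GC-rich sites; in peripheral nerve the Egr family is best known for Egr2 (Krox20), which drives myelination, and AP-1 for Jun, which drives the repair state of Schwann cells after injury. The messages are short-lived, since many carry AU-rich motifs in the 3′ untranslated region.

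Plekhg5 itself, which encodes a guanine nucleotide exchange factor, had a mean of 4.35 FPKM ± 0.826 (SD, n = 3) over wild-type and 0.111 ± 0.0513 (SD, n = 3) over Plekhg5-deficient nerves, as the labels say (limma log2 fold change -2.26, adjusted p = 0.0380). No gene was called lower, Plekhg5 included, without a filter on low values, or with any 1 nerve or both nerves numbered 5 left out. FPKM are fragments counted per length of transcript and per size of library, so levels can be set side by side between genes. They were divided by 1 factor per library, between 0.745 and 1.12. Of the depth the sources used here say nothing. The defining Schwann cell markers were high in every nerve. Libraries stood apart in other cell types. In wild-type nerve 5, all 8 T-cell and all 8 B-cell markers were at least 2-fold above every other nerve (summed T-cell markers 87.4 FPKM, against 1.94 to 6.19 in the others). In Plekhg5-deficient nerve 5, all 8 erythroid, all 8 neutrophil and 9 of 12 skeletal muscle markers were, and haemoglobin made up 16.0% of the summed FPKM (0.507% to 2.56% in the others). Muscle markers also differed widely among the other nerves. The 12 summed to 19308.5, 3032 and 14124.5 FPKM in wild-type nerves 2, 4 and 5. In Plekhg5-deficient nerves 2, 3 and 5 they summed to 2808, 341 and 51083 FPKM. The 12 Schwann cell markers summed to 11027, 19887 and 12486 FPKM in the wild-type (2, 4 and 5) and 19371, 19677 and 11596 FPKM in the Plekhg5-deficient nerves (2, 3 and 5). None of these marker lists had a gene listed at 0 in all nerves. Differences of the 10 genes that rest on one of these libraries are given below with and without it.

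The promoters were searched for sites of the factors named above. Sequence of the 250 bases before the start site was held for 7 of the 10 genes in the RefSeq table (build GRCm38.p6): Fos, Fosb, Junb, Jund, Atf3, Nr4a1 and Btg2. The core of the cAMP response element (CRE), TGACG on either strand, which CREB and ATF proteins bind, was found in 6 of these 7 windows, all except that of Jund, and in 17.8% of 32851 mouse promoter windows of the same length. The full palindrome TGACGTCA was found in 1, that of Btg2, and in 1.55% of all windows, each full site also holding the core on both strands. The Egr site GCGNGGGCG was found in 3 (Fosb, Nr4a1 and Btg2; 4.70% of all windows) and the TATA box TATAAA in 1 (Fos; 12.4%), each searched on both strands. The CArG box that SRF binds was found in 0 of 7 (1.47% of all windows) and the AP-1 site TGANTCA in 0 of 7 (6.75%). A match describes letters and no binding, and an absent match says only that the letters are not in these 250 bases. The start sites are those of RefSeq. In the GENCODE M21 annotation Jund spans 1668 bases, with another start or end than in the deposited tables. Its start site is thus uncertain, and its window may lie away from it. The start or end also differs for Fosb, Junb, Atf3 and Nr4a1. The 4 windows shown are that of Fos, with its cores and TATA box, and the 3 that join a CRE core to an Egr site. They run 5′ to 3′ on the gene's strand, and the capitals mark the CRE core or the full CRE, where CGTCA is the core on the opposite strand.
Fos, chr12:85473640-85473889, plus strand: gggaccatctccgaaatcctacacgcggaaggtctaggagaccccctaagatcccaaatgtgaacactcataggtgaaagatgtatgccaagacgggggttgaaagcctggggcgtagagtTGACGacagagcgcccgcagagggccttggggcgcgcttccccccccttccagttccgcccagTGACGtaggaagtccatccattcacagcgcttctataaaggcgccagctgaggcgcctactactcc
Fosb, chr7:19310046-19310295, minus strand: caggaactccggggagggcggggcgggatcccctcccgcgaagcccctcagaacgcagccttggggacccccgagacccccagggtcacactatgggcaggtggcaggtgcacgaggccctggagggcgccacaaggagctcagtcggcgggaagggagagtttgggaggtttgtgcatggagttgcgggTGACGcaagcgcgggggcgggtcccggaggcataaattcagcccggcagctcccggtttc
Nr4a1, chr15:101266596-101266845, plus strand: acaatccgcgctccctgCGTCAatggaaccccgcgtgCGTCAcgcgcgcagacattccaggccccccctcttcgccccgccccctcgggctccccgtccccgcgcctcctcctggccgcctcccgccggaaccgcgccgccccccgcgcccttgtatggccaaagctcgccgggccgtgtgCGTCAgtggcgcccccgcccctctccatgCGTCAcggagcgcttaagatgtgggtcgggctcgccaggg
Btg2, chr1:134079156-134079405, minus strand: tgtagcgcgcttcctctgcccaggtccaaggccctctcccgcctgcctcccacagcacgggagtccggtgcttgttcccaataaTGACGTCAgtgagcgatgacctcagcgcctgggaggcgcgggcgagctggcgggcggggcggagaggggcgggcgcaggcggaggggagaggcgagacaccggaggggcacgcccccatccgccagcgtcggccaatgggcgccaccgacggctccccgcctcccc
Counted from the start site, the cores of Fos lay at positions -129 to -125 and -66 to -62, and its TATA box at -33 to -28. Nr4a1 held 4 cores, the nearest at -40 to -36, and its Egr site at -60 to -52. In Fosb the core (-60 to -56) and the Egr site (-50 to -42) lay beside each other, and in Btg2 the full CRE began at -166 and the Egr site at -131.

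The 10 genes covered much of the range of expression in the nerve. Jund had the highest mean over 6 nerves (52.5 FPKM, range 45.1 to 61.6), followed by Nr4a1 (41.3, range 30.6 to 58.8), Egr1 (12.2, range 6.01 to 30.0), Btg2 (11.1, range 6.57 to 15.8) and Atf3 (6.97, range 4.44 to 12.8). Ier2 (4.10), Junb (3.86) and Fos (3.80) lay close to the middle of all genes tested, with at most 51.5% of genes below them, while 91.9% of genes had a lower mean than Jund and 89.9% a lower mean than Nr4a1. Egr3 (1.58 FPKM) and Fosb (0.571 FPKM) were lowest, with 35.7% and 23.3% of genes below them. Between neighbours in this order, the ranges over 6 nerves did not overlap between Nr4a1 and Egr1 alone. All other neighbours overlapped in range, although Btg2 was above Atf3 and Egr3 above Fosb in 6 of 6 nerves. Jund and Nr4a1 together made up 59.4% to 75.6% of the summed FPKM of the 10 genes in a nerve.

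Between genotypes, 9 of the 10 genes had a lower fitted level in Plekhg5-deficient nerves, and the exception was Nr4a1. With FPKM as deposited, without scaling between libraries, Nr4a1 was below 0 too (-0.02), so that 10 of 10 were lower. The median over all genes was itself at -0.094 in that unscaled fit, below the value of Nr4a1. In the scaled fit, 48.9% of all 21285 genes tested had a log2 fold change below 0, a share not taken for the unscaled fit. By the fold between means, the largest differences among the 10 were those of the zinc finger genes Egr1 and Egr3 and of Fosb, at 2.91-fold, 3.70-fold and 2.95-fold lower. No gene of the 10 passed the test over all genes (limma, adjusted p under 0.05), a threshold that 0.00940% of all genes passed in the lower direction, 0.0282% in the higher and 0.0376% in either. At an unadjusted p under 0.05, 3 of the 10 were lower (2.69% of all genes, 573 genes) and 0 were higher (2.41%, 514 genes). This balance depends on the scaling, since with FPKM as deposited 753 of all genes were lower and 239 higher, and 4 of the 10 were lower. With array weights 5 of the 10 were lower, among 1175 lower and 1275 higher genes. The same 3, Egr1, Egr3 and Fosb, were those in which the Plekhg5-deficient nerves all lay below the wild-type ones (5.88% of all genes), and no gene of the 10 showed the opposite order (5.69%). In the other 7 the genotypes overlapped. The 10 genes were chosen with earlier results of these data known. Their counts beside the shares of all genes are thus a description and no test. The median log2 fold change of the 10 genes was -0.40, beside 0.0065 over all genes tested. The standard error of a log2 fold change had a median of 0.309 among them and of 0.222 among all genes tested, with Jund (0.16) and Fosb (0.20) below the latter.

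**Figure D1:**
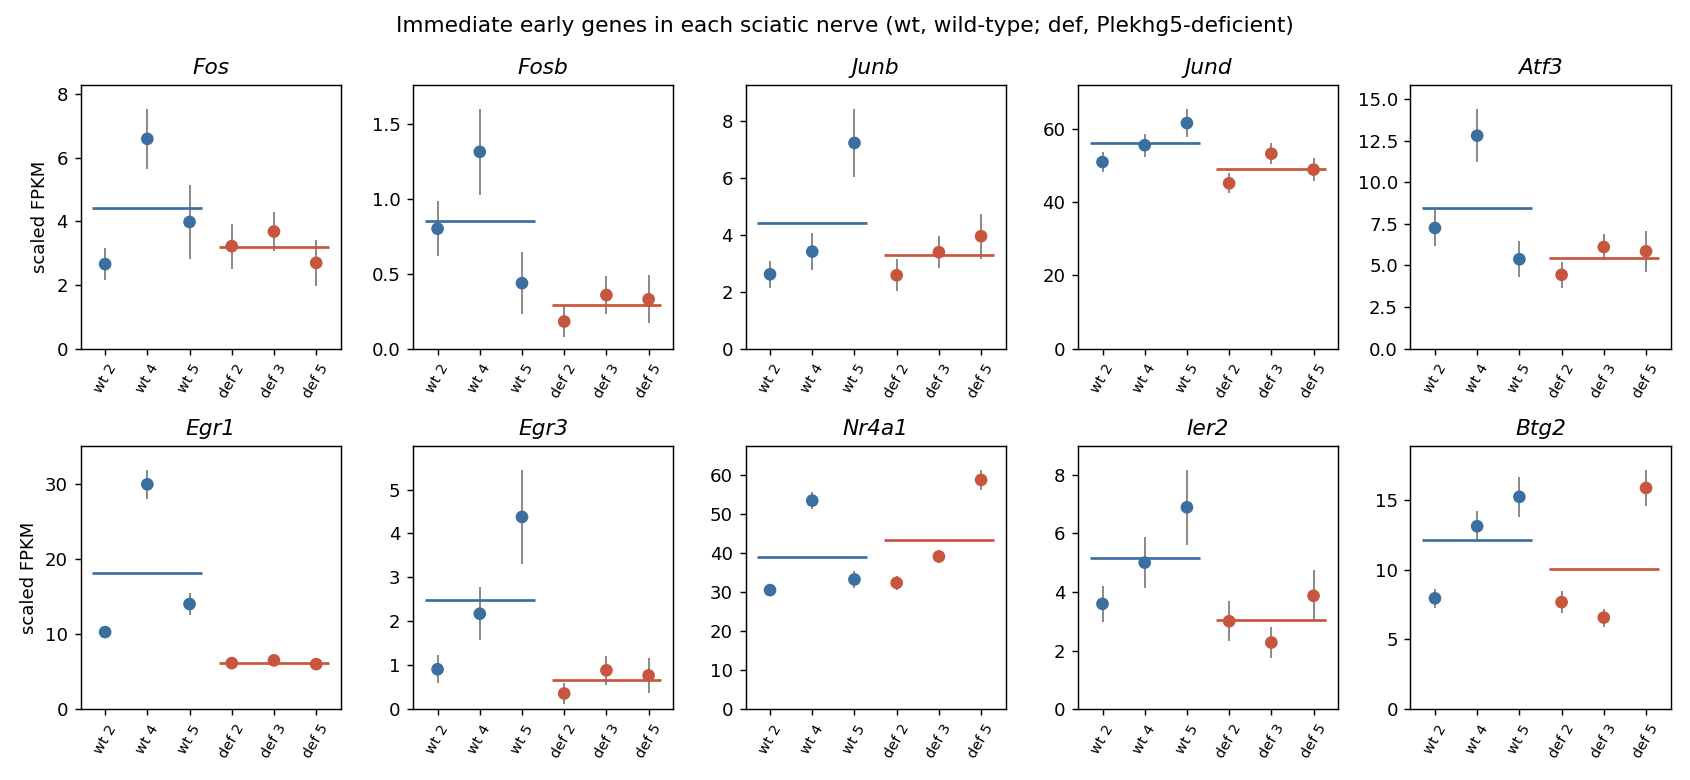
Scaled FPKM of the 10 immediate early genes in 3 wild-type (wt, blue) and 3 Plekhg5-deficient (def, red) sciatic nerves, 1 panel per gene with its own axis from 0. Points are nerves, grey lines the 95% intervals given by Cufflinks and bars the mean of 3 nerves. The 3 red points lie below the 3 blue ones for Fosb, Egr1 and Egr3 alone, and the Plekhg5-deficient values of Egr1 lie between 6.01 and 6.52 FPKM.

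Egr1 (chromosome 18, 34859823 to 34864984, GRCm38 as for all positions below) encodes a zinc finger transcription factor that Erk signaling induces. Wild-type nerves 2, 4 and 5 held 10.3, 30.0 and 14.02 FPKM, and Plekhg5-deficient nerves 2, 3 and 5 held 6.15, 6.52 and 6.01 FPKM. The lowest wild-type nerve was 1.58 times the highest Plekhg5-deficient nerve, and the 3 Plekhg5-deficient nerves were nearly equal while the wild-type nerves spread over 2.91-fold. The wild-type mean was 18.1 ± 10.5 FPKM and the Plekhg5-deficient mean 6.23 ± 0.261 FPKM (SD, n = 3 each). By limma, Egr1 had a log2 fold change of -1.27 with a standard error of 0.37 and an adjusted p of 0.785, which ranged from 0.242 to 0.9996 over the alternatives. An exact two-sided permutation test gave p = 0.1, the smallest that 3 against 3 nerves allow. Wild-type nerve 4 was 2.14 times the next nerve, and without it the log2 fold change was -0.85. The study lists Egr1 among its lower transcripts, but that list was drawn from these libraries and is no independent evidence of the direction.

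Egr3 (chromosome 14, 70077445 to 70080157) encodes a relative of Egr1 that is known from muscle spindle development and from lymphocytes. The wild-type nerves held 0.910, 2.17 and 4.38 FPKM and the Plekhg5-deficient ones 0.359, 0.887 and 0.770 FPKM. The genotypes just failed to overlap, the lowest wild-type nerve being 1.03 times the highest Plekhg5-deficient nerve. Means were 2.49 ± 1.75 and 0.672 ± 0.277 FPKM (SD, n = 3 each), and limma gave a log2 fold change of -0.95 with a standard error of 0.38 (adjusted p = 0.972, exact permutation p = 0.1). The scale of log2(FPKM + 1) understates changes of low genes, and with a pseudocount of 0.1 in place of 1 the log2 fold change was -1.57. Egr3 was highest in wild-type nerve 5, the nerve with high lymphocyte markers, and without that nerve it was -0.58. Whether those markers have a part in the level of Egr3 was not tested. The width of the Cufflinks intervals corresponds to only 9 to 66 independent fragments per nerve for Egr3, against 223 to 938 for Egr1.

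Fosb (chromosome 7, 19302721 to 19310045) encodes an AP-1 subunit, known in neurons for a long-lived splice form. It was the lowest of the 10 genes, with 0.802, 1.32 and 0.437 FPKM in the wild-type and 0.180, 0.358 and 0.329 FPKM in the Plekhg5-deficient nerves. All Plekhg5-deficient nerves were below all wild-type nerves, although wild-type nerve 5 was only 1.22 times the highest of them. The Cufflinks intervals of Fosb correspond in width to 12 to 84 fragments per nerve. Means were 0.852 ± 0.442 and 0.289 ± 0.0953 FPKM (SD, n = 3 each). Its log2 fold change by limma was -0.50, with a standard error of 0.20 (adjusted p = 0.972, exact permutation p = 0.1), and it was -1.21 with a pseudocount of 0.1 and -0.32 without wild-type nerve 4. At an unadjusted p under 0.05 by limma, 1 to 3 of the 10 were lower when 1 nerve was left out. It was 1 without wild-type nerve 4 or without Plekhg5-deficient nerve 2 or 3. The count over all genes moved as well in these fits, from 344 to 757 lower genes. It was 454 without wild-type nerve 4, 344 without Plekhg5-deficient nerve 2 and 465 without Plekhg5-deficient nerve 3.

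Fos (chromosome 12, 85473890 to 85477273), the partner of Jun proteins in AP-1 and the textbook immediate early gene, held 2.65, 6.59 and 3.98 FPKM in the wild-type and 3.22, 3.67 and 2.69 FPKM in the Plekhg5-deficient nerves. Both the highest and the lowest nerve were wild-type, and the Plekhg5-deficient nerves lay within the wild-type range. For Fos limma gave a log2 fold change of -0.31 with a standard error of 0.30 (adjusted p = 0.974), and without wild-type nerve 4 it was -0.03. Atf3 (chromosome 1, 191170296 to 191183340), a stress-induced factor of the ATF family that injured neurons and Schwann cells express, held 7.26, 12.8 and 5.37 FPKM in the wild-type and 4.44, 6.11 and 5.85 FPKM in the Plekhg5-deficient nerves. It was highest in wild-type nerve 4, and wild-type nerve 5 lay below a pair of Plekhg5-deficient nerves. Atf3 differed by -0.49 on the log2 scale, with a standard error of 0.31 (adjusted p = 0.974 by limma), and by -0.18 without wild-type nerve 4. Fos, Fosb, Atf3 and Egr1 were thus all highest in wild-type nerve 4, which had the highest summed Schwann cell markers of the wild-type nerves at about the level of Plekhg5-deficient nerves 2 and 3, and the part of those markers in the 4 genes was not tested.

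Junb (chromosome 8, 84976909 to 84978748) and Jund (chromosome 8, 70697739 to 70700616) encode AP-1 subunits that tend to oppose Jun. In the wild-type nerves Junb stood at 2.61, 3.41 and 7.23 FPKM, and in the Plekhg5-deficient ones at 2.58, 3.39 and 3.95 FPKM. Apart from wild-type nerve 5, which was 1.83 times the next, the nerves of both genotypes lay between 2.58 and 3.95 FPKM. Its log2 difference of -0.25 had a standard error of 0.34 (adjusted p = 0.980 by limma) and turned to 0.09 without wild-type nerve 5. Jund reached 50.9, 55.5 and 61.6 FPKM in the wild-type and 45.1, 53.2 and 48.8 FPKM in the Plekhg5-deficient nerves. It was the steadiest of the 10 genes, with 1.36-fold between its highest and its lowest nerve, and the genotypes overlapped through 1 Plekhg5-deficient nerve. The means of Jund were 56.0 ± 5.34 and 49.0 ± 4.04 FPKM (SD, n = 3 each), which limma fitted as -0.19 on the log2 scale with a standard error of 0.16 (adjusted p = 0.974), and as -0.13 without wild-type nerve 5. Jund is overlapped by the antisense gene Gm11175 (70699162 to 70700080, minus strand), which was itself listed at 23.1 to 44.9 FPKM. The sources used here do not give the strand setting of the counting, so reads of the pair cannot be told apart.

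Nr4a1 (chromosome 15, 101266846 to 101274792), which encodes the orphan nuclear receptor Nur77, reached 30.6, 53.5 and 33.3 FPKM in the wild-type and 32.4, 39.2 and 58.8 FPKM in the Plekhg5-deficient nerves. Each genotype had 1 nerve well above its other two, which lay between 30.6 and 39.2 FPKM. Nr4a1 had means of 39.1 ± 12.5 and 43.5 ± 13.7 FPKM (SD, n = 3 each). Its log2 difference was 0.15, with a standard error of 0.30 (adjusted p = 0.984 by limma), and turned to -0.09 without Plekhg5-deficient nerve 5, the nerve rich in haemoglobin, neutrophil and muscle markers, whose part was not tested.

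Ier2 (chromosome 8, 84661331 to 84662852) encodes a small nuclear protein named for its rapid induction. The wild-type nerves held 3.59, 4.9999 and 6.88 FPKM and the Plekhg5-deficient ones 3.002, 2.28 and 3.87 FPKM. The genotypes overlapped only because wild-type nerve 2 was at 0.929 times Plekhg5-deficient nerve 5. Means of 5.16 ± 1.65 and 3.05 ± 0.798 FPKM (SD, n = 3 each) were 1.69-fold apart. The fit by limma gave -0.59 on the log2 scale with a standard error of 0.27 (adjusted p = 0.974), and -0.40 without wild-type nerve 5, where Ier2 was highest. Btg2 (chromosome 1, 134075170 to 134079120), an antiproliferative gene induced by p53 and growth factors, reached 7.95, 13.1 and 15.2 FPKM in the wild-type and 7.67, 6.57 and 15.8 FPKM in the Plekhg5-deficient nerves. The highest nerve of all was Plekhg5-deficient nerve 5, beside 2 wild-type nerves nearly as high. Btg2 differed by -0.30 on the log2 scale, with a standard error of 0.37 (adjusted p = 0.980 by limma), by -0.66 without Plekhg5-deficient nerve 5, by -0.07 without Plekhg5-deficient nerve 3 and by -0.13 without wild-type nerve 5.

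Across nerves, the 10 genes did not all follow the same order. Fos, Fosb, Atf3 and Egr1 were highest in wild-type nerve 4, Junb, Jund, Egr3 and Ier2 in wild-type nerve 5, and Nr4a1 and Btg2 in Plekhg5-deficient nerve 5, so that 8 of 10 were highest in a wild-type nerve. The lowest nerve was Plekhg5-deficient for 8 genes, and Plekhg5-deficient nerve 2 for 5 of these. Wild-type nerve 2 was lowest for Fos and Nr4a1. The mean deviation of the 10 genes from their own means was -0.15, 0.51 and 0.34 on the log2 scale for wild-type nerves 2, 4 and 5, and -0.40, -0.24 and -0.07 for Plekhg5-deficient nerves 2, 3 and 5. Wild-type nerve 2 thus lay between Plekhg5-deficient nerves 3 and 5, and the other wild-type nerves above all 3. In wild-type nerve 4, 9 of the 10 genes were above their own mean, and in Plekhg5-deficient nerve 2, 0 were.

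**Figure D2:**
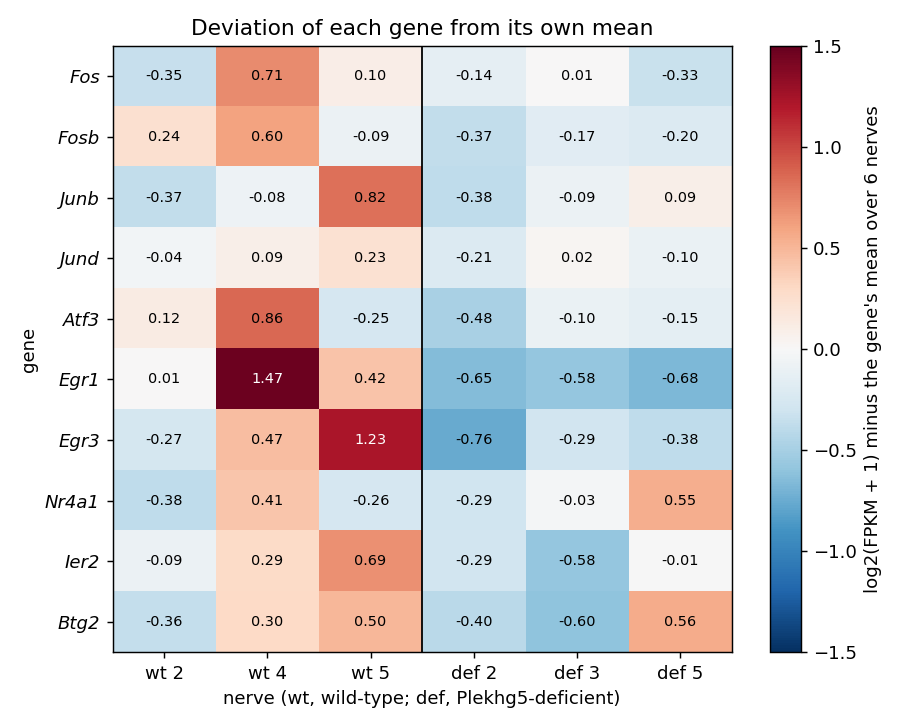
Log2(FPKM + 1) of each immediate early gene (rows) in each nerve (columns) minus the gene's mean over 6 nerves, with red above and blue below that mean. The Plekhg5-deficient columns (def) lie below 0 throughout for Fosb, Atf3, Egr1, Egr3 and Ier2, while wild-type nerves 4 and 5 hold the highest values of 8 genes and Plekhg5-deficient nerve 5 those of Nr4a1 and Btg2.

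**Figure D3:**
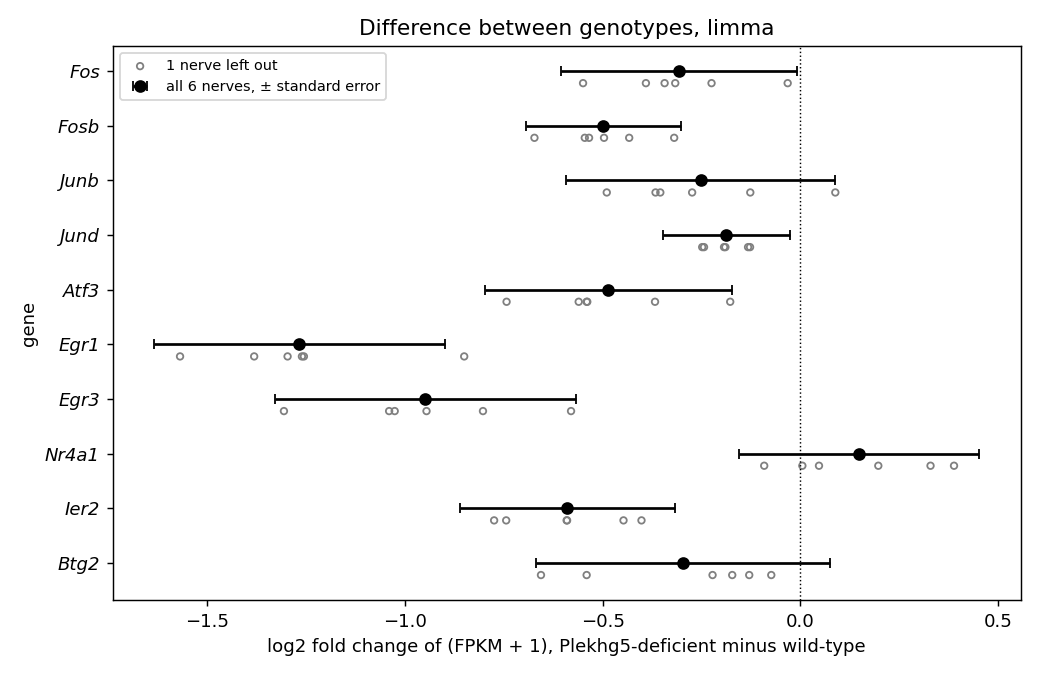
Log2 fold change of (FPKM + 1), Plekhg5-deficient minus wild-type, from limma for the 10 immediate early genes, with bars for 1 standard error and open circles for the fits with 1 nerve left out. Egr1 (-1.27) and Egr3 (-0.95) lie farthest below 0 with all 6 nerves, and Egr3 moves to -0.58 without wild-type nerve 5, while the circles of Junb and Nr4a1 lie on both sides of 0.

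Of 40 other immediate early genes, all tested, 27 had a log2 fold change below 0, with a median of -0.12. At an unadjusted p under 0.05, 2 were lower (2.69% of all genes) and 1 was higher (2.41%), and 0 passed the adjusted threshold by limma. Of the 4 most abundant, Sgk1, a kinase induced by serum and glucocorticoids, held 48.7, 92.3 and 66.3 FPKM in the wild-type and 119, 112 and 188 FPKM in the Plekhg5-deficient nerves. All 3 of the latter were above all of the former, with 1.01 on the log2 scale and a standard error of 0.31 (adjusted p = 0.838 by limma). The interferon-related regulator Ifrd1 (0.41), the acute phase factor Cebpd (0.24) and the small GTPase Rhob (-0.26) overlapped between genotypes. Ifrd1 and Cebpd were highest in Plekhg5-deficient nerve 5, as were 17 of the 40. Named after their values were seen, Arc, Egr4 and Ptgs2 were the others without overlap, all lower in Plekhg5-deficient nerves and all low in the nerve. That makes 3 of 40 in the lower and 1 of 40 in the higher direction, beside 5.88% and 5.69% of all genes, and is near that background. Arc, a synaptic protein, held 0.780, 1.77 and 1.25 FPKM in the wild-type and 0.222, 0.539 and 0.0476 FPKM in the Plekhg5-deficient nerves (limma, -0.83 on the log2 scale with a standard error of 0.22, adjusted p = 0.739). Egr4 had means of 0.370 ± 0.181 and 0.0493 ± 0.0639 FPKM (SD, n = 3 each), and the prostaglandin synthase gene Ptgs2 0.179 ± 0.0268 and 0.0593 ± 0.0413 FPKM. Jun, the AP-1 partner of Fos, also named after its values were seen, held 18.4, 20.9 and 14.6 FPKM in the wild-type and 13.8, 16.4 and 18.6 FPKM in the Plekhg5-deficient nerves, with a log2 fold change of -0.13.

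Of 14 partners and repressors of AP-1 and Egr proteins, 11 were below 0, with a median of -0.16. At an unadjusted p under 0.05 by limma, 1 was lower (2.69% of all genes). That gene was Atf5, a factor of the integrated stress response and 1 of the 4 most abundant, with 42.3, 49.1 and 56.9 FPKM in the wild-type and 32.1, 25.7 and 26.4 FPKM in the Plekhg5-deficient nerves. The genotypes of Atf5 did not overlap (limma, -0.79 on the log2 scale with a standard error of 0.18, adjusted p = 0.606). Every Plekhg5-deficient nerve was lower for 1 of the 14, which is near the 5.88% of all genes in that order. The other abundant genes of the list, Atf4 (-0.22), Atf7 (0.21) and Maf (0.01), overlapped. Atf7 is uncertain, since its level stands on the second of a pair of identifiers at the same place and the first is listed near 0.

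Of 14 SRF, ternary complex and CREB factors, 11 were below 0, with a median of -0.19. By limma, 0 passed even an unadjusted p under 0.05, beside 2.69% of all genes lower and 2.41% higher. Their most abundant members were the CREB coactivators Crtc2 (-0.09) and Crtc3 (-0.58), the ternary complex factor Elk4 (-0.17) and the CREB relative Atf1 (0.07), each with overlapping genotypes. Mkl1, a coactivator of SRF named here after its values were seen, was the single gene of the list without overlap. It held 6.53 ± 2.03 FPKM in wild-type and 4.58 ± 0.295 FPKM in Plekhg5-deficient nerves (SD, n = 3 each). This makes 1 of 14 in the lower direction, near the 5.88% of all genes. Of 16 kinases of the Erk cascade and its neighbours, 7 were below 0 and 9 above, with a median of 0.04, and 0 passed an unadjusted p under 0.05. Mapk3, which encodes Erk1, had a log2 fold change of 0.04 (standard error 0.44), the kinase gene Araf 0.12 and the GTPase gene Hras -0.02. Mapk3 reached 371 to 1079 FPKM and was the most abundant gene of the list. These are transcript levels and say nothing of phosphorylation. Mapk14, which encodes p38 alpha and was named after its values were seen, was lower in every Plekhg5-deficient nerve (26.7 ± 2.02 against 20.8 ± 2.58 FPKM, SD, n = 3 each). That order held for 1 of the 16, again near the 5.88% of all genes.

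**Figure D4:**
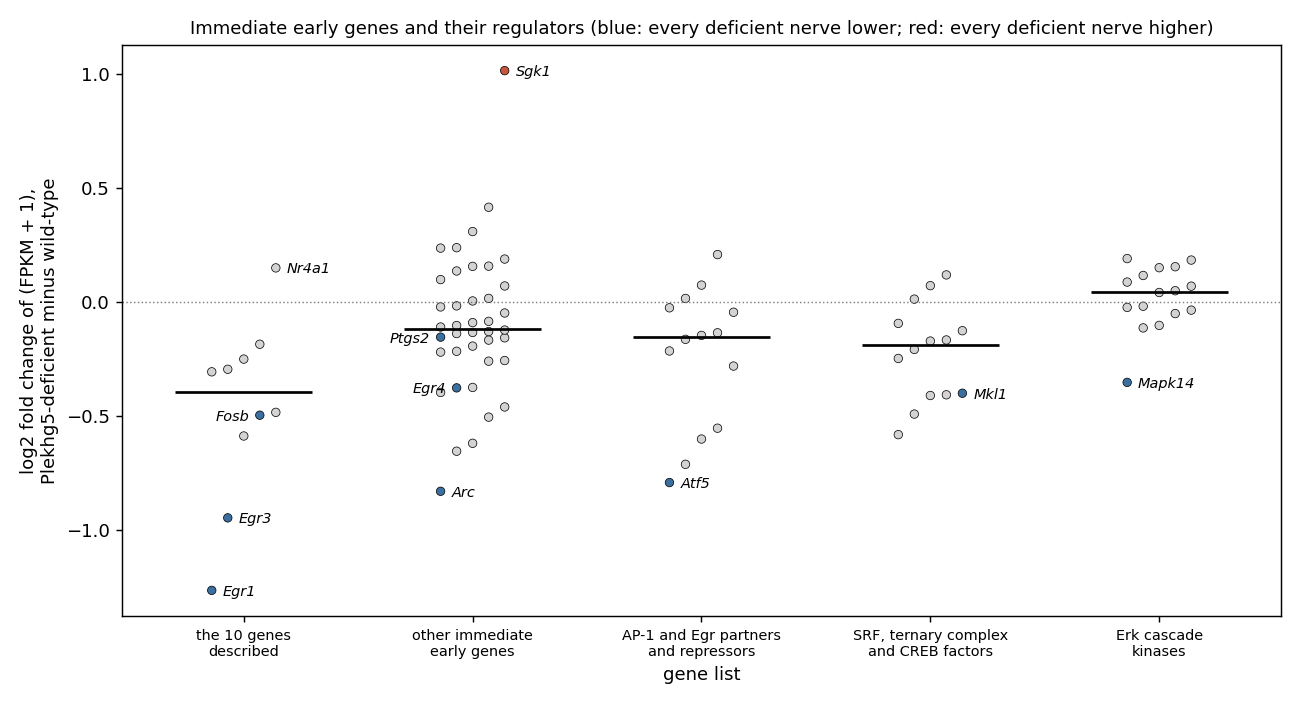
Log2 fold change of (FPKM + 1), Plekhg5-deficient minus wild-type, of the 10 immediate early genes, 40 other immediate early genes, 14 AP-1 and Egr partners and repressors, 14 SRF, ternary complex and CREB factors and 16 Erk cascade kinases. Each point is a gene and each bar the list's median (-0.40, -0.12, -0.16, -0.19 and 0.04), with blue where every Plekhg5-deficient nerve was lower and red, as for Sgk1, where every one was higher.

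The genes closest to the mean profile of the 10 across nerves were looked up among all others, as a description. Among 14955 genes at a mean of 1 FPKM or more, the root mean square difference from that profile over 6 nerves was smallest for the microtubule affinity kinase Mark2 (0.072 on the log2 scale), the fibroblast protease Fap (0.073), the small GTPase Rhod (0.078), the Polycomb protein Pcgf2 (0.081), Gm6910 (0.083), the insulin receptor substrate Irs2 (0.084), Gm7582 (0.088), the lysosomal membrane protein Sidt2 (0.093), the nuclear factor Nfic (0.094) and Zfp493 (0.094). These are the closest of many candidates, whose median was 0.433, and the 10 genes themselves lay between 0.225 (Ier2) and 0.499 (Egr1). Mark2, the closest, held 10.1, 14.8 and 14.03 FPKM in the wild-type and 7.81, 8.41 and 9.13 FPKM in the Plekhg5-deficient nerves. The 8 fibroblast markers summed to 2299, 2920 and 3518 FPKM in the wild-type and 2691, 2334 and 2069 FPKM in the Plekhg5-deficient nerves, and their part in this pattern was not tested.

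The gene structures were taken from GENCODE M21, while the positions above are those of the deposited tables, whose start or end differs from M21 for Fosb, Junb, Jund, Egr3, Atf3 and Nr4a1. In M21 the span of the 10 genes had a median of 4698.5 bases, against 23297.5 among 16012 protein-coding genes tested, and they had a median of 2 exons against 8. Junb, Jund and Ier2 have 1 exon each, while Atf3 spans 47744 bases, more than 70.9% of those genes, and Nr4a1 spans 20527 bases with 8 exons. In the 3′ untranslated region, the AU-rich motif ATTTA occurred at least once in 9 of 10 genes, all except Ier2 (63.9% of protein-coding genes tested), and at least 3 times in 5, Fos, Egr3, Atf3, Nr4a1 and Btg2 (32.8%). Egr3 held the most, with 7. Per kilobase the 10 genes held 2.24 motifs and all protein-coding genes 1.82. The 3 genes without overlap between genotypes did not stand apart in this, with 1 motif in Fosb, 2 in Egr1 and 7 in Egr3.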

How the data were processed

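Whole sciatic nerves of mice were sequenced, 3 of each genotype. The deposited FPKM, 1 table per library, come from poly(A) libraries (SENSE mRNA-Seq, Lexogen), which the authors trimmed (Trim Galore 0.4.0), mapped to GRCm38 (STAR) and quantified (Cufflinks 2.2.1), per the methods and the submitters' processing notes. The sources used here give no annotation release, strand setting or depth. Rows of the 19 repeated identifiers were added up. The 21285 genes whose mean reached 0.1 FPKM in a genotype were scaled by median-of-ratios factors and tested as log2(FPKM + 1) with limma 3.58.1 (R 4.3.3), with no term but genotype, a trended variance and the Benjamini-Hochberg adjustment. The fit was tested on simulated data. Single genes were also tested with exact permutation. Fragments behind a value are the number implied by the width of its 95% interval from Cufflinks, and no count. Each interval is of 1 library and does not cover differences between animals. The members and all lists were chosen with earlier results of these data known. Named were the 10 genes, Plekhg5, the 4 most abundant genes of each list and any gene called in it, the 10 genes of most like profile and abundant cell type markers, with exceptions said to be such. Some genes of this rule are not reported here. Alternatives were other pseudocounts, filters, scalings and variance models, genes of status OK, a replicate block and leaving out libraries. Leaving out both libraries numbered 5 was chosen after seeing the data.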

Additional observations from a re-analysis of the deposited data

How the results depend on the processing

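Under 18 alternatives, 173 of 179 values of the 10 immediate early genes kept their direction and stayed uncalled, 6 changed sign and 0 were called. With a minimum of 1 FPKM Fosb was not tested, which leaves 8 of 9 genes lower. Values changed sign for Nr4a1, Junb and Btg2. Nr4a1, at 0.15 in the main fit, was at -0.016 with FPKM as deposited (where the median of all genes was -0.094). With array weights it was at -0.21 and without both libraries numbered 5 at -0.19, each farther from 0 than in the main fit. With 1 library left out, Nr4a1 lay between -0.091 and 0.39 and Junb between -0.49 and 0.089. Btg2 was at 0.0051 with the replicate block. With 1 library left out, the median log2 fold change of the 10 genes lay between -0.54 and -0.27, with 8 to 10 of them lower, and Egr1 lay between -1.57 and -0.85. Over all genes, 2 passed an adjusted p under 0.05 in the lower and 6 in the higher direction (573 and 514 at an unadjusted p under 0.05, and 753 and 239 with FPKM as deposited). The lower count was 1 with a pseudocount of 0.1, 1 with a minimum of 1 FPKM, 1 with the robust variance, 0 without a filter, 8 with array weights, 0 without both libraries numbered 5 (735 lower at an unadjusted p) and 0 to 0 with 1 library left out (344 to 757 at an unadjusted p). The higher count was 2 without a filter, 14 with array weights, 9 without both libraries numbered 5 and 0 to 5 with 1 library left out. With the replicate block both counts were 0, so Plekhg5 was not called either (616 in the lower and 336 in the higher direction at an unadjusted p). The genotypes share only the numbers 2 and 5, and the labels give no pairing by number. The pairs numbered 2 and 5 had correlations of deviations of 0.073 and 0.580. The latter was the highest of all pairs between the genotypes. Whether nerves of the same number share a litter or a day cannot be told from this. The causes of these shifts were not tested. Depth limits Fosb and Egr3 most, at 9 to 84 fragments per nerve as implied by the Cufflinks intervals.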

Other observations

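Egr2, the master regulator of myelination and a close relative of Egr1, moved with Egr1 among the wild-type nerves and stood at another ratio to it in the Plekhg5-deficient nerves. Wild-type nerves 2, 4 and 5 held 19.0, 51.0 and 25.1 FPKM of it and Plekhg5-deficient nerves 2, 3 and 5 held 35.0, 40.1 and 33.7 FPKM, with a log2 fold change of 0.31 and overlapping genotypes. The ratio of Egr1 to Egr2, which does not depend on the scaling between libraries, was 0.543, 0.587 and 0.560 in the wild-type nerves and 0.176, 0.162 and 0.179 in the Plekhg5-deficient nerves. The wild-type mean of the ratio was 0.563 ± 0.0225 and the Plekhg5-deficient mean 0.172 ± 0.00866 (SD, n = 3 each), 3.27-fold lower. Among wild-type nerves, nerve 4 was highest in both genes. Among Plekhg5-deficient nerves Egr1 alone was already nearly equal, at 6.23 ± 0.261 FPKM (SD, n = 3). Its Cufflinks intervals overlapped between these nerves, so whether it moved with Egr2 there cannot be told. The pair was chosen after its values were seen, so the ratio is a description with no test. Egr2 is in the list of other immediate early genes and among the 12 Schwann cell markers, of which 6 were highest in wild-type nerve 4.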
